A study of Mus musculus with 19 samples.

Results

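A set of 25 protein-coding genes had their RNA low at the end of differentiation and high after fusion in wild-type (WT) mouse muscle cultures. The genes were chosen from the WT values themselves. A gene entered when its mean level in WT fused myotubes was at least 5 TPM (a level scaled to transcript length and to the library's total) and at least 6 times its mean in WT differentiated myotubes. Its mean in WT differentiated myotubes also had to be at most 2 times that in WT myoblasts, with 0.1 TPM added to each mean. Of 21882 protein-coding genes among 35598 genes in all, 8487 reached the level, 69 of these also the ratio, and 25 also the limit on the earlier stage. The WT rise from differentiated to fused myotubes is therefore the choice itself, and WT values are given as a description without a test.

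The libraries came from primary myoblasts of mouse hind-limb muscle, sampled as proliferating myoblasts at 24 h, as differentiated myotubes at 48 h and as fused myotubes at 72 h. The WT label covers 3, 3 and 4 libraries at these stages. Libraries labelled as Glud1-deficient, called KO-labelled from here on, number 3, 2 and 4. Glud1 encodes the mitochondrial glutamate dehydrogenase. Every deposited file carries KO in its name, WT files included, and a further letter T sets the Glud1-deficient ones apart; groups were taken from the labels. The replicates are labelled biological, and whether each was its own animal or culture is not given, so the tests measure only the spread between these libraries, which may be technical. No promoter, Cre driver, deleted exon, animal age or treatment was named in the sources used here.

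Myoblasts leave the cell cycle, switch on myogenin and contractile genes, and then fuse into multinucleate myotubes. Fused myotubes become electrically excitable and start to contract, and their membrane receptors, ion channels and metabolic regulators are set up in this period. The late genes include immediate-early transcription factors, whose transcription responds within a short time to calcium and growth factor signals. They also include brakes on ERK, mTORC1 and insulin receptor signalling, receptors for BMP, nucleotides and Slit, and an inward-rectifier potassium channel.

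Library totals ranged from 16168131 to 30742634 estimated counts. Stage markers followed the labels in both groups. Myog, a transcription factor of differentiating muscle, averaged 120.0 TPM in WT myoblasts, 2380 TPM in WT differentiated and 780.0 TPM in WT fused myotubes. Ckm, the muscle creatine kinase, averaged 201 and 628 TPM in the 2 myotube stages. The targeted gene did not check the labels. In TPM, Glud1 was lower without overlap at each stage, with means of 169 and 139 TPM in WT and KO-labelled myoblasts, 83.8 and 61.7 TPM in differentiated, and 102 and 79.4 TPM in fused myotubes. In counts, its log2 difference was -0.02, -0.09 and -0.02 at the 3 stages, with adjusted p = 0.849, 0.193 and 0.748 by edgeR's quasi-likelihood test. Of 14 macrophage markers, 6 were at 0 in all 19 libraries, and the list summed to between 3.59 and 9.7 TPM. The 10 adipocyte markers summed to 226 to 307 TPM in WT differentiated and 339 to 395 TPM in WT fused myotubes, and to 120 to 145 and 475 to 494 TPM in KO-labelled ones, nearly all of it Car3, a carbonic anhydrase that muscle also makes. Adipoq reached at most 0.153 TPM in any library. The 13 fibroblast and fibro-adipogenic markers, of which Dpt was at 0 in every library, summed to 101 to 110 TPM in WT differentiated and 166 to 208 TPM in WT fused myotubes, and to 87.5 to 89.7 and 183 to 202 TPM in KO-labelled ones. The 10 endothelial markers, with Emcn and Erg at 0 throughout, summed to 2.9 to 5.35 TPM in KO-labelled differentiated and 6.05 to 10.5 TPM in KO-labelled fused myotubes, while the WT sums overlapped, at 3.33 to 3.84 and 3.24 to 6.44 TPM. The macrophage sum was lower at 72 than at 48 h, at 8.49 to 9.7 and then 4.35 to 5.21 TPM in KO-labelled libraries and at 6.58 to 7.84 and then 5.05 to 5.57 TPM in WT. Smooth muscle and pericyte markers summed to 1880 to 2090 and then 534 to 574 TPM in KO-labelled libraries, and to 2790 to 3090 and then 513 to 550 TPM in WT. Tenocyte markers summed to 163 to 185 and then 102 to 121 TPM in KO-labelled libraries, and to 167 to 183 and then 93.4 to 107 TPM in WT. Bone and cartilage markers summed to 126 to 138 and then 160 to 166 TPM in KO-labelled libraries. In WT they summed to 204 to 252 and then 221 to 273 TPM. Schwann and glial markers summed to 1.41 to 1.74 and then 1.78 to 2.35 TPM in KO-labelled libraries. In WT they summed to 1.76 to 2.35 and then 1.36 to 2.28 TPM. The adipocyte and fibroblast sums were higher at 72 than at 48 h in both labels, as the late genes were. The endothelial, bone and Schwann sums were higher without overlap in KO-labelled libraries only. The part of these lists in the results was not tested.

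Promoter windows of RefSeq (build GRCm38.p6, from 250 bases before to 50 after an annotated start) were found for 19 of the 25 genes, in 28 windows. The 4 shown are those of the genes with the largest WT ratio among the matched ones, Mlf1 and Ddit4l, and the windows of Ndrg2 and Art3, singled out after their values were seen because they alone hold the MEF2 element CTANNNNTAG, which myocyte enhancer factor 2 binds in muscle genes. Each is written 5′ to 3′ on the gene's strand, and capitals mark matches to the 14 motifs searched on both strands. Mlf1 is at chr3:67373847-67374146 on the plus strand, Ddit4l at chr3:137623422-137623721 on the plus strand, Ndrg2 at chr14:51913955-51914254 on the minus strand and Art3 at chr5:92386637-92386936 on the plus strand.
Mlf1: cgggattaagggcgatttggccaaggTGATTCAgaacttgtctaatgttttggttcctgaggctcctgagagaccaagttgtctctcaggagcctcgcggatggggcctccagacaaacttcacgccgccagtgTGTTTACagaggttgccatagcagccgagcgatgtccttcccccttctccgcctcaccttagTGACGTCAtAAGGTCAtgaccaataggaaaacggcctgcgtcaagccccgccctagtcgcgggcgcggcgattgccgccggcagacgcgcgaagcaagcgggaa
Ddit4l: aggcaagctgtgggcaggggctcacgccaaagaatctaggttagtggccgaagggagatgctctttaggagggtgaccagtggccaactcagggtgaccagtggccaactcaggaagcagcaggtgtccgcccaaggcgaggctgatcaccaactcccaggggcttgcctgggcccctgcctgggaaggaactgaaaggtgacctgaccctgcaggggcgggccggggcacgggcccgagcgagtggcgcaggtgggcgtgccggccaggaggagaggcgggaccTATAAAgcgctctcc
Ndrg2: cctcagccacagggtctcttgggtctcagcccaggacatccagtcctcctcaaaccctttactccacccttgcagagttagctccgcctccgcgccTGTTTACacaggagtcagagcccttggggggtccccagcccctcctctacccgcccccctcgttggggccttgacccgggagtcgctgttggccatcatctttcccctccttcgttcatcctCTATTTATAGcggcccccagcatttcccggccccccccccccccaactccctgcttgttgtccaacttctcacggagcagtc
Art3: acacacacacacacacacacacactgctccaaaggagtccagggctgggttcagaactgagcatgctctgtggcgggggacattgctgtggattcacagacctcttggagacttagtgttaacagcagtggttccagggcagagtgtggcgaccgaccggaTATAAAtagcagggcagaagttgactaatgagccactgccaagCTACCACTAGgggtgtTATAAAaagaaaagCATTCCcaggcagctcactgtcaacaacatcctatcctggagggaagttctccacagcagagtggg
In Mlf1 the capitals mark AP-1 (TGANTCA) at -224, FoxO (GTAAACA) at -116, the cyclic AMP element TGACGTCA at -54 and ERR (AAGGTCA) at -45. In Ndrg2 they mark FoxO at -154 and MEF2 at -32, within which a TATA match (TATAAA) starts at -29. In Art3 they mark TATA at -89 and -30, MEF2 at -46 and TEAD (GGAATG) at -16, and in Ddit4l a TATA match at +35. Positions count from the annotated start. Of all 32851 windows of this length, 3.69% hold the MEF2 element, 13.6% the TATA match, 3.65% the FoxO element and 1.79% the cyclic AMP element. The matches are descriptions of letters, not bound sites.

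The 25 genes were unequal in level. Cd24a, a glycosylated membrane-anchored surface protein, led with 203, 205, 179 and 132 TPM in the WT fused libraries against 3.83, 4.51 and 4.53 TPM in WT myoblasts and 3.61, 4.69 and 4.15 TPM in WT differentiated myotubes. Its mean fused-to-differentiated ratio of 42.3 was the highest of the set. Cd24a, Ddit4l and Dusp6 made up 55.5% of the summed TPM of the 25 in WT fused myotubes and 63.2% in KO-labelled ones. The sum itself was 143 ± 2.82 TPM (SD, n = 3) in WT myoblasts, 43.5 ± 3.21 (n = 3) in differentiated and 606 ± 67.5 (n = 4) in fused myotubes. In KO-labelled libraries it was 143 ± 5.03 (n = 3), 41.3 ± 4.83 (n = 2) and 654 ± 15.8 TPM (n = 4). In bulk RNA, fewer cells of a type and less RNA per cell cannot be told apart.

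**Figure D1:**
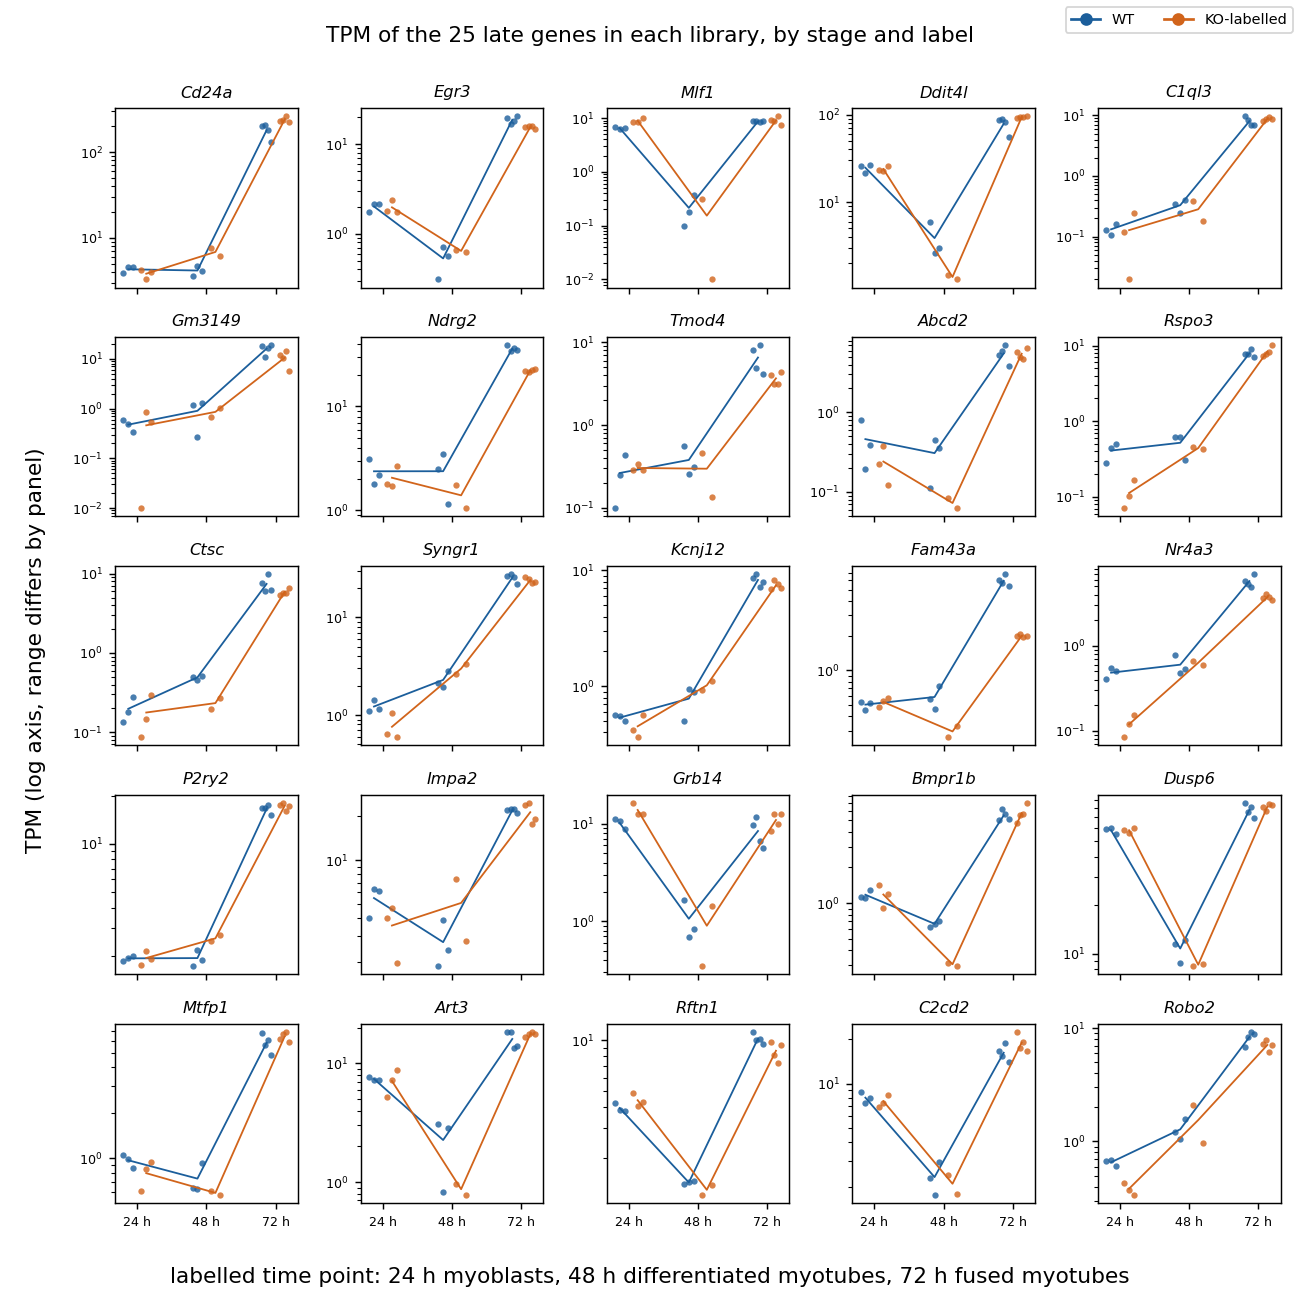
TPM of each of the 25 genes in every library, on a log axis whose range differs by panel, at the labelled 24, 48 and 72 h; points are libraries, lines join group means, and a library at 0 is drawn at 0.01. The 72 h points of every gene lie above its 48 h points in both labels, while genes such as Mlf1, Grb14 and Dusp6 are also high at 24 h.

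The words late and only at fusion fit some of the genes and not others. With 0.1 TPM added to each mean, WT fused means were at least 10 times the myoblast means for 11 genes, from 3 to 10 times for 8, and under 3 times for 6. At the high end stood Cd24a at 41.0 times and C1ql3, a secreted C1q-like protein of synapses, at 35.2 times. At the low end, Grb14, an adaptor that binds and inhibits the insulin receptor, was at 11.1, 10.7 and 8.81 TPM in WT myoblasts, averaged 1.06 TPM in differentiated myotubes and was at 9.78, 11.6, 6.67 and 5.66 TPM in fused ones. Its myoblast and fused libraries overlapped. Dusp6, a phosphatase that switches off ERK, averaged 58.2, 10.8 and 77.8 TPM over the 3 WT stages. For these genes the pattern is a trough at 48 h, not a late onset.

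The KO-labelled libraries took no part in the choice, so the stage changes were tested in them. From differentiated to fused myotubes, 25 of the 25 genes rose and 0 fell by the quasi-likelihood test of edgeR, with p-values adjusted by the Benjamini-Hochberg method over 15123 genes. Among all genes tested, 35.8% were called higher and 34.4% lower in this comparison. The median log2 fold change of the 25 was 3.73, with a range from 2.53 to 5.99, against 0.015 over all genes tested. In every one of the 25 the 4 fused libraries lay above both differentiated libraries in TPM. The share of all genes with such a separation was not counted, so this only describes the 25. The largest adjusted p was 3.45e-06.

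**Figure D2:**
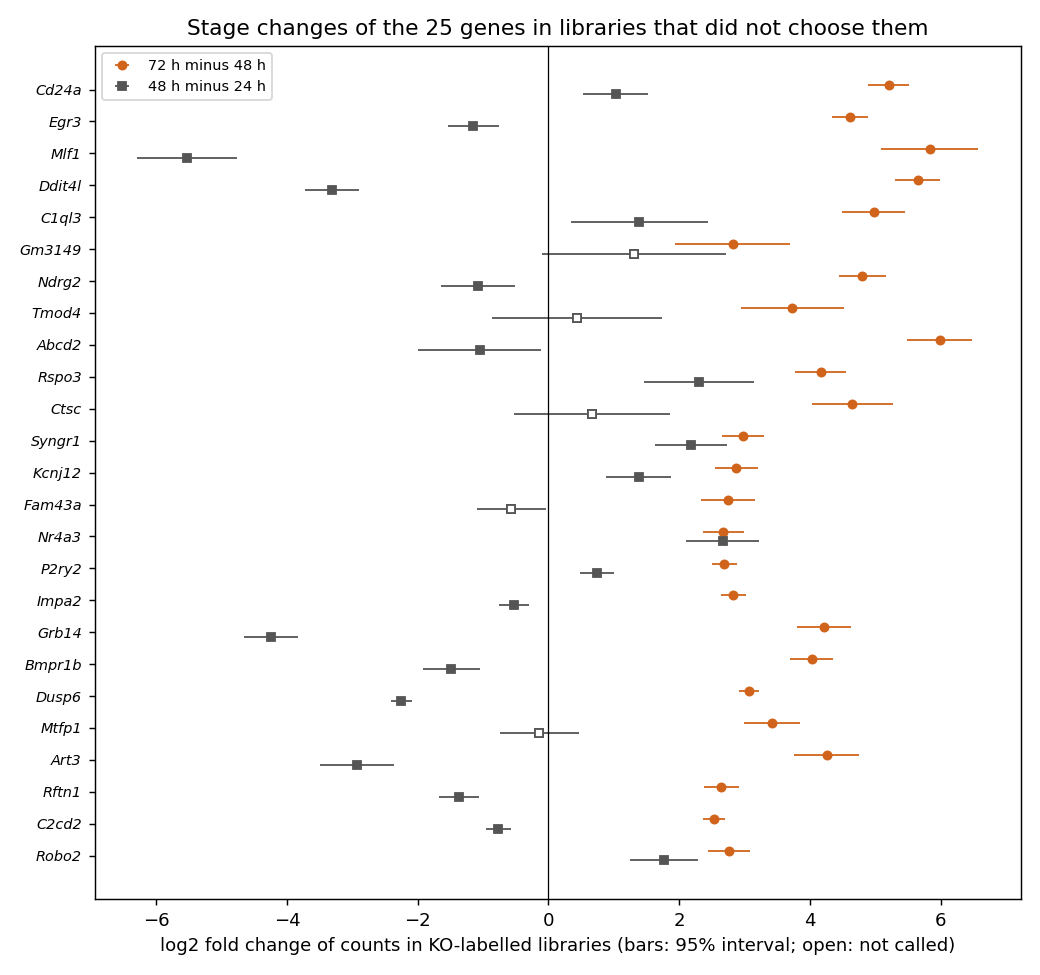
Log2 fold change of counts in KO-labelled libraries for each of the 25 genes, from 48 to 72 h (circles) and from 24 to 48 h (squares), with 95% intervals; open symbols missed the threshold. All 72 h minus 48 h changes lie between 2.53 and 5.99, whereas the 48 h minus 24 h changes spread to both sides of 0, and the Mlf1 values rest on 0 and 3 counts at 48 h.

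Among the transcription factors, Egr3, an immediate-early zinc-finger protein needed for muscle spindles, was at 15.4, 15.9, 15.9 and 14.9 TPM in KO-labelled fused myotubes against 0.664 and 0.624 TPM in differentiated ones. This is a log2 rise of 4.62 ± 0.14 (SE), with adjusted p = 1.97e-20 by edgeR. Nr4a3, an immediate-early orphan nuclear receptor, was at 3.63, 4.08, 3.76 and 3.51 TPM in KO-labelled fused libraries and at 0.673 and 0.595 TPM in differentiated ones, a log2 rise of 2.67 ± 0.16. Relatives with the same name stem, listed after the 25 genes were known, also rose. Egr1 rose by 1.83 and Egr2 by 2.47 on the log2 scale, with fused means of 39.5 and 1.98 TPM. Nr4a1 rose by 0.65 and Nr4a2 by 1.73.

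Of the signalling brakes, Ddit4l, an inhibitor of mTORC1 signalling in muscle, was at 91.3, 95.2, 92.9 and 95.4 TPM in KO-labelled fused libraries and at 1.48 and 1.31 TPM in differentiated ones. The log2 rise was 5.65 ± 0.17. Its close relative Ddit4 instead fell by 0.32 on the log2 scale, from a mean of 9.36 to 7.45 TPM, with adjusted p = 0.00187 by edgeR. Dusp6 averaged 8.53 TPM in KO-labelled differentiated and 81.5 TPM in fused myotubes, a log2 rise of 3.08 ± 0.08. Of 21 other Dusp genes tested, 11 rose and 7 fell, where 35.8% of all genes tested were called higher and 34.4% lower. Dusp4 had a log2 change of 2.14 and Dusp1 of -0.74. Grb14 was at 0.35 and 1.45 TPM in differentiated and at 8.46, 12.6, 9.86 and 12.7 TPM in fused libraries. Its log2 rise was 4.22 ± 0.21, while its relative Grb10 had a log2 change of -0.44.

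The receptors and secreted proteins rose as well. Bmpr1b, a type I BMP receptor, was at 0.314 and 0.295 TPM in KO-labelled differentiated and at 4.73, 5.54, 5.66 and 7.0 TPM in fused libraries, a log2 rise of 4.03 ± 0.17. The other BMP receptor genes Bmpr1a and Bmpr2 rose by 0.26 and 0.40. P2ry2, a G-protein-coupled receptor for ATP and UTP, rose by 2.69 ± 0.10 on the log2 scale, to 17.2 TPM on average, and its relative P2ry1 by 2.09. Rspo3, a secreted amplifier of Wnt signalling, averaged 0.442 TPM in differentiated and 8.36 TPM in fused myotubes, a log2 rise of 4.17 ± 0.20. Robo2, a receptor for Slit guidance proteins, rose by 2.77 ± 0.17, whereas Robo1 had a log2 change of -1.51. C1ql3 rose from a mean of 0.282 to 8.78 TPM.

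Of the gene lists examined, 3 hold 1 of the 25 genes each. Tmod4, a cap of thin-filament pointed ends in skeletal muscle, was at 4.08, 3.11, 3.17 and 4.32 TPM in KO-labelled fused libraries and at 0.457 and 0.135 TPM in differentiated ones, the latter from 5 and 2 counts. Its log2 rise was 3.73 ± 0.41. Of the 80 tested genes of the sarcomere list, 49 rose and 18 fell in the same comparison, with a median log2 change of 0.47. Kcnj12, an inward-rectifier potassium channel that helps set the resting potential, rose by 2.88 ± 0.17 to a mean of 7.45 TPM. Of the 62 tested genes of the excitation and calcium handling list, 46 rose and 11 fell, with a median of 0.63. Kcnj2, another inward rectifier of muscle, rose by 0.82 and Kcnj11 by 1.91. The list of FoxO targets and atrophy genes, which holds Ddit4l, had 30 of 48 higher and 14 lower, with a median of 0.37. For all 3 lists the shares over all genes tested are the 35.8% higher and 34.4% lower given above, with a median of 0.015.

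The remaining genes include several of metabolism, membranes and organelles. Abcd2, a peroxisomal transporter of very long chain fatty acids, had the largest fitted log2 rise, 5.99 ± 0.25, from 0.0828 and 0.0625 TPM (5 and 4 counts) to between 4.72 and 6.38 TPM. Abcd3 and Abcd4, of the same family, rose by 0.54 and 0.53. Ctsc, the lysosomal dipeptidyl peptidase cathepsin C, rose by 4.65 ± 0.32, Mtfp1, an inner-membrane protein that promotes mitochondrial fission, by 3.42 ± 0.22, and Impa2, an inositol monophosphatase, by 2.83 ± 0.10. For Impa2 the 2 differentiated libraries stood at 7.4 and 2.77 TPM although their counts were between 78 and 92, since its transcripts were split differently. Art3, of the ADP-ribosyltransferase family, rose by 4.26 ± 0.25 to a mean of 17.5 TPM, and the muscle enzyme gene Art1 by 2.43 to 114 TPM. Syngr1, a vesicle membrane protein, rose by 2.98, Rftn1, a lipid raft protein, by 2.65, C2cd2 by 2.53 and Fam43a by 2.75.

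A pair of genes need reserve in their size. Mlf1, the myeloid leukemia factor gene, had 0 and 3 counts in the KO-labelled differentiated libraries and between 58 and 133 in the fused ones. The ratio of pooled counts per library total was 61.0, with an exact 95% interval from 20.7 to 297 that covers counting error only. Gm3149 rose by 2.82 ± 0.45, but 94.6% of its 31-base words also occur in other genes, 81.2% in Gm8362 alone, so reads may have been split among copies. For the other 24 genes the shared part was at most 1.74%. Of protein-coding neighbours, C2cd2 shares exon sequence with Zbtb21 on the same strand, and Art3 overlaps an exon of Cxcl10 on the opposite strand. No pair of the genes lay closer than 4216 kb, so they form no cluster in the genome.

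From KO-labelled myoblasts to differentiated myotubes, 8 of the 25 rose, 12 fell and 5 passed in neither direction, where 41.3% of all genes were called higher and 42.5% lower. These counts are near the shares over all genes and set the 25 apart in no direction. The 12 that fell were Mlf1, Grb14, Ddit4l, Art3, Dusp6, Bmpr1b, Rftn1, Egr3, Ndrg2, Abcd2, C2cd2 and Impa2. For Impa2 the fall was in counts, and its mean TPM was 3.56 in myoblasts and 5.09 at 48 h. Ddit4l stood at 23.2, 22.5 and 25.9 TPM in KO-labelled myoblasts, a log2 change of -3.31 ± 0.21 to the next stage. The 8 that rose were Nr4a3, Rspo3, Syngr1, Robo2, C1ql3, Kcnj12, Cd24a and P2ry2. Nr4a3 rose by 2.67 ± 0.29, from 0.0847, 0.119 and 0.155 TPM.

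Between myoblasts and fused myotubes of the KO label, 24 genes rose and 0 fell, against 42.7% and 44.5% of all genes called higher and lower. Grb14 was the exception. It was at 16.3, 12.5 and 12.7 TPM in myoblasts and between 8.46 and 12.7 TPM in fused myotubes, a log2 difference of -0.02 ± 0.09 with adjusted p = 0.815 by edgeR. Its 95% interval ran from -0.21 to 0.16. Mlf1 rose in counts by 0.31 ± 0.14, with adjusted p = 0.0384 by edgeR, but its mean TPM was 8.92 in myoblasts and 9.02 in fused myotubes, with overlapping libraries. At the other end, Rspo3 rose by 6.47, C1ql3 by 6.37 and Cd24a by 6.24.

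When the rule was applied to the KO-labelled libraries it picked 42 genes, 17 of them shared, which is 68.0% of the 25 and 40.5% of the 42. Of the 8 that did not pass, Tmod4 missed the level, Impa2 the ratio, Fam43a the level and the ratio, and Nr4a3 all 3 conditions. Rspo3, Syngr1 and Kcnj12 had differentiated means above 2 times the myoblast means, and Robo2 missed this limit and the ratio. Among the 25 genes gained were Myh4, a fast myosin heavy chain, Etv5, Fgf1 and Bhlhe40. In that order their KO-labelled fused means were 132, 56.2, 15.8 and 32.7 TPM, and their WT ones 147, 58.3, 17.2 and 39.5 TPM. In WT, Myh4 and Fgf1 met the ratio, at 69.8 and 8.35. They missed only the limit on the earlier stage, at 3.81 and 3.22 times. Etv5 and Bhlhe40 missed only the ratio in WT, at 5.57 and 4.47. Near the edges in WT, Bmpr1b, Abcd2 and Nr4a3 had fused means of 5.49, 5.51 and 5.78 TPM, and Pitpnc1, Pik3ip1 and Map2k6 stayed out at 4.81, 4.65 and 4.64 TPM. Robo2, C2cd2 and Rftn1 had ratios of 6.13, 6.70 and 6.74, and Klf9, Sobp and Gpt 5.85, 5.72 and 5.70. Ctsc, C1ql3 and Robo2 stood at 1.99, 1.85 and 1.83 times the myoblast level at 48 h, and Gm3476, Trim7 and Chrne at 2.01, 2.37 and 2.58 times.

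The second question was whether the label altered the levels of these genes. The WT libraries of these comparisons also chose the genes, since each had to be high in WT fused myotubes, low in WT differentiated ones and not much lower in WT myoblasts. The choice by itself favours lower KO-labelled values at 72 and 24 h and higher ones at 48 h, so p-values in those directions are no independent support. In fused myotubes 3 of the 25 were called higher and 5 lower in KO-labelled libraries, against 6.32% and 6.72% of all genes. The median log2 difference of the 25 was 0.04, and 17 passed in neither direction.

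**Figure D3:**
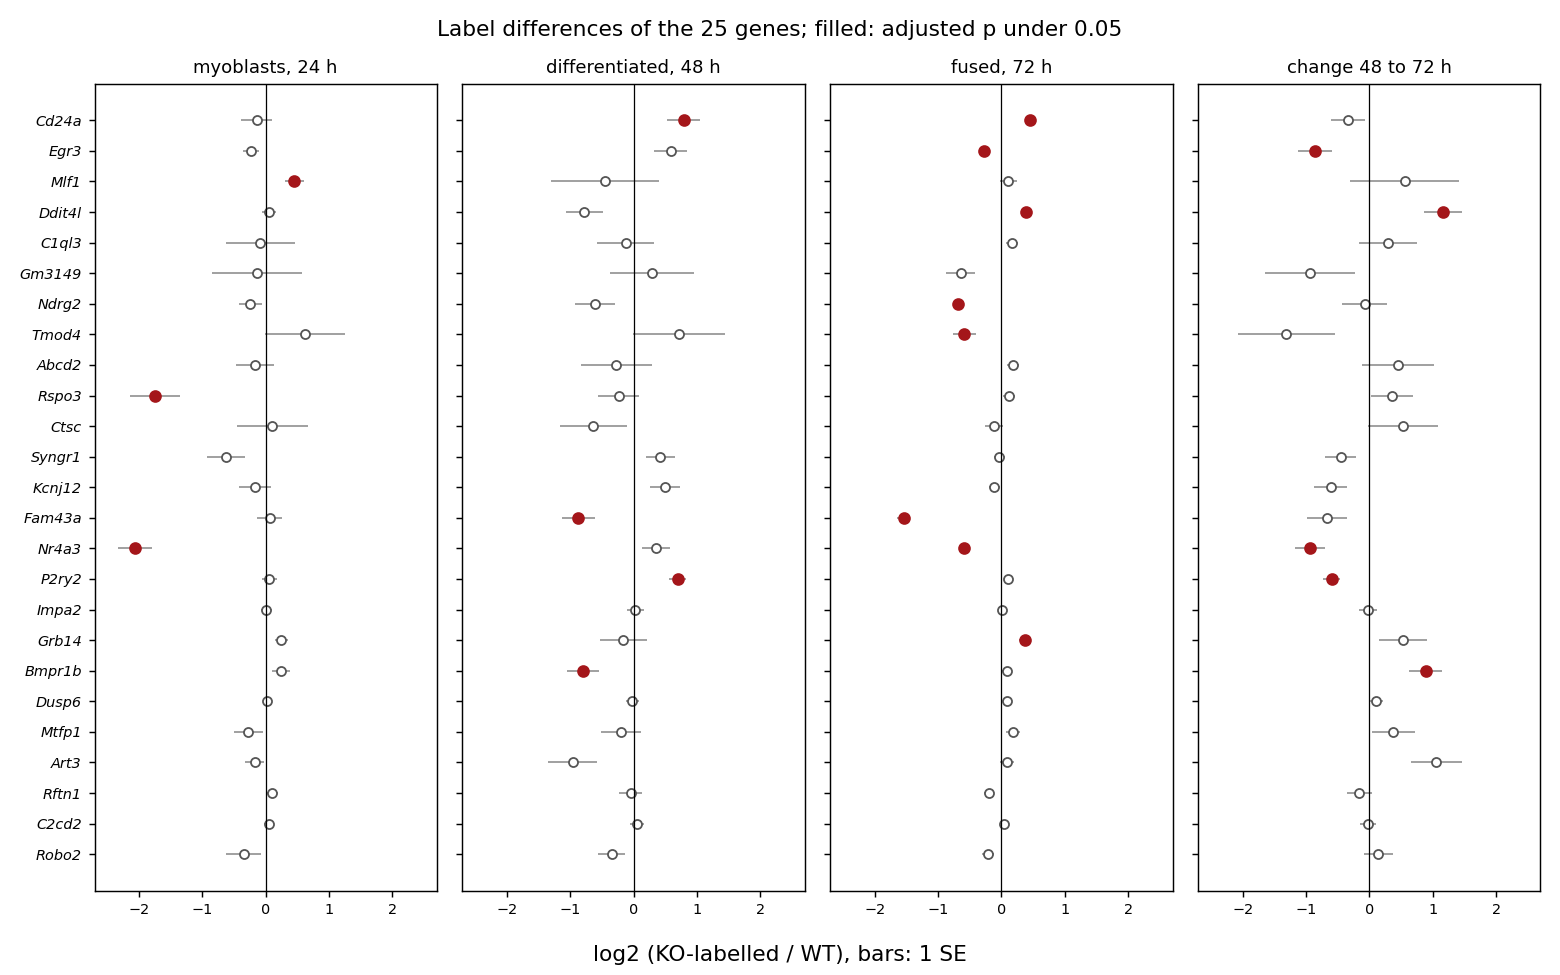
Log2 ratio of KO-labelled to WT counts for the 25 genes at 24, 48 and 72 h, and the difference of the 48 to 72 h change between labels, with bars of 1 SE; filled points had an adjusted p under 0.05. Most points lie near 0, and Fam43a at 72 h (-1.54) and Nr4a3 (-2.06) and Rspo3 (-1.75) at 24 h lie farthest from it among the filled ones.

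Fam43a (chr16:30599723-30602797, GRCm38), whose product has no role given here, had the largest called difference of the 25 at 72 h. It was at 6.05, 5.64, 6.79 and 5.31 TPM in WT fused and at 1.97, 2.06, 1.93 and 1.97 TPM in KO-labelled fused libraries. The 2 groups did not overlap, and the KO-labelled ones varied little. The fold was 2.92 lower, a log2 difference of -1.54 ± 0.10 with adjusted p = 9.23e-12 by edgeR. In myoblasts Fam43a did not pass, with 0.535, 0.457 and 0.524 TPM in WT and 0.481, 0.541 and 0.575 TPM in KO-labelled libraries. Its 48 h difference was -0.87 ± 0.26, with adjusted p = 0.0156 by edgeR, from 0.565, 0.466 and 0.734 TPM against 0.265 and 0.328 TPM. That call was lost without KO-labelled replicate 1 (adjusted p = 0.168 by edgeR) or WT replicate 3 (0.136), or when only the groups compared were fitted (0.0696).

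Ndrg2 (chr14:51905271-51914158, GRCm38), a stress-responsive member of the N-myc downstream-regulated family, was at 38.8, 34.5, 36.2 and 34.8 TPM in WT and at 22.2, 21.3, 22.7 and 22.8 TPM in KO-labelled fused libraries, again without overlap. The log2 difference was -0.69 ± 0.07, with adjusted p = 2.4e-07 by edgeR. At 48 h its difference was -0.61 ± 0.32 and did not pass. Nr4a3 was at 5.86, 5.38, 4.89 and 6.98 TPM in WT fused libraries, all above the KO-labelled values of 3.51 to 4.08 TPM, a log2 difference of -0.59 ± 0.09 with adjusted p = 2.73e-05 by edgeR. Egr3 was at 19.4, 17.0, 18.2 and 20.4 TPM in WT and between 14.9 and 15.9 TPM in KO-labelled fused libraries, a smaller difference of -0.28 ± 0.06 with adjusted p = 0.00312 by edgeR. With an offset for the effective length of the transcripts this became 0.148, and the call was lost. Tmod4, at 8.02, 4.84, 9.21 and 4.16 TPM in WT, overlapped with the KO-labelled values. Its difference of -0.59 ± 0.18 had adjusted p = 0.0307 by edgeR, and 0.0942 to 0.129 without WT replicate 1 or 3 or KO-labelled replicate 2 or 3. DESeq2 gave 0.0667 for it, and the effective-length offset 0.0733.

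Cd24a was the most abundant of the genes higher under the KO label, at 233, 238, 260 and 223 TPM in fused myotubes against 132 to 205 TPM in WT. The log2 difference was 0.45 ± 0.08, with adjusted p = 0.000283 by edgeR. The lowest WT value came from replicate 4, without which the difference was 0.33 with adjusted p = 7.79e-05 by edgeR. Ddit4l was at 87.9, 88.7, 82.4 and 55.8 TPM in WT fused libraries, the last again from replicate 4, and at 91.3 to 95.4 TPM in KO-labelled ones. Its log2 difference was 0.39 ± 0.08, and 0.27 without that replicate, with adjusted p = 0.000826 and 0.00133 by edgeR. The call was lost with an offset for effective transcript length, with a difference of 0.29 and adjusted p = 0.251. Grb14 differed by 0.37 ± 0.10, with overlapping TPM, and its adjusted p by edgeR rose from 0.011 to 0.0599 without WT replicate 4 and to 0.319 with that offset.

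**Figure D4:**
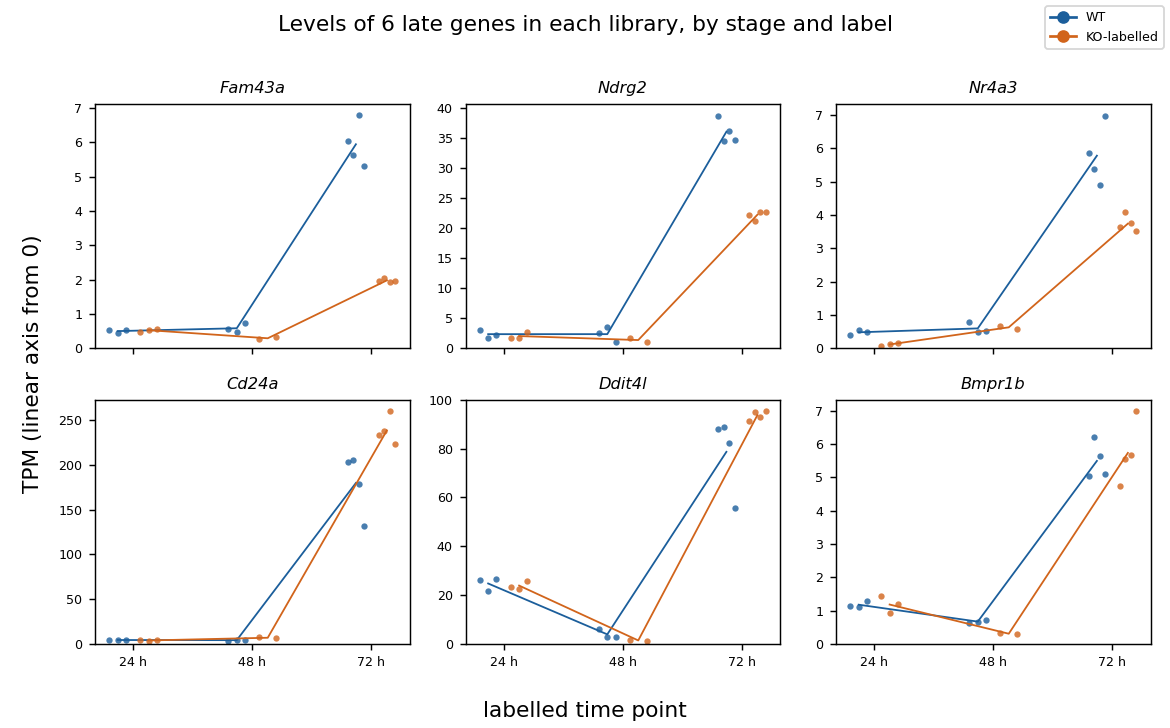
TPM on a linear axis from 0 of 6 genes in every library at 24, 48 and 72 h; points are libraries and lines join group means. Fam43a, Ndrg2 and Nr4a3 have KO-labelled points below all WT points at 72 h, Cd24a and Ddit4l have them above, and Bmpr1b points overlap at 72 h but not at 48 h.

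In myoblasts 1 of the 25 genes was called higher and 2 lower in KO-labelled libraries, against 4.86% and 6.69% of all genes. Nr4a3 was at 0.408, 0.543 and 0.501 TPM in WT and at 0.0847, 0.119 and 0.155 TPM in KO-labelled myoblasts, a log2 difference of -2.06 ± 0.27 with adjusted p = 3.75e-06 by edgeR. Rspo3 was at 0.281, 0.441 and 0.507 TPM in WT and at 0.0708, 0.102 and 0.165 TPM in KO-labelled myoblasts, from 12 to 16 and 4 to 5 counts. Its log2 difference was -1.75 ± 0.39, with adjusted p = 0.00351 by edgeR. In both, the 2 groups were apart in every library. The rule used the WT myoblast level and favours this direction, and both genes missed its limit on the earlier stage in KO-labelled libraries, at 3.34 times for Nr4a3 and 2.55 times for Rspo3. Mlf1 was higher by 0.46 ± 0.15 with adjusted p = 0.0454 by edgeR, but leaving out any 1 of the 6 myoblast libraries gave 0.0623 to 0.174. DESeq2 gave 0.0697, DESeq2's size factors in edgeR 0.0578 and the effective-length offset 0.202.

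In differentiated myotubes 2 genes were called higher and 2 lower, against 11.0% and 14.1% of all genes. P2ry2 was at 1.73, 2.18 and 1.89 TPM in WT and at 2.46 and 2.68 TPM in KO-labelled libraries, a log2 difference of 0.69 ± 0.13 with adjusted p = 0.000281 by edgeR. Bmpr1b was at 0.626, 0.669 and 0.709 TPM in WT and at 0.314 and 0.295 TPM in KO-labelled libraries. Its log2 difference of -0.80 ± 0.25 had adjusted p = 0.0183 by edgeR, and 0.0862 or 0.129 without KO-labelled replicate 1 or 2. Cd24a was higher by 0.79 ± 0.26, with adjusted p = 0.0256 by edgeR. Without KO-labelled replicate 1 or 2, or WT replicate 1 or 3, this became 0.170, 0.0749, 0.0756 or 0.0599.

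The change from 48 to 72 h itself was larger under the KO label for 2 genes and smaller for 3, against 8.27% and 6.53% of all genes. It was larger by 1.16 ± 0.30 on the log2 scale for Ddit4l and by 0.89 ± 0.26 for Bmpr1b, and the difference was -0.94 ± 0.24 for Nr4a3, -0.86 ± 0.27 for Egr3 and -0.60 ± 0.14 for P2ry2. Adjusted p by edgeR was 0.00885 for Ddit4l, 0.0214 for Bmpr1b, 0.0079 for Nr4a3, 0.0328 for Egr3 and 0.00522 for P2ry2. These differences use the WT change that the rule selected to be large, which favours a smaller KO-labelled change, the direction of the Nr4a3, Egr3 and P2ry2 calls, so those p-values are no independent support. The KO-labelled 48 h group has only 2 libraries, and leaving out replicate 1 raised these to 0.0883, 0.084, 0.0512 and 0.193 for Ddit4l, Bmpr1b, Nr4a3 and Egr3. Leaving out replicate 2 gave 0.123, 0.0552, 0.0834 and 0.0574 for Bmpr1b, Nr4a3, Egr3 and P2ry2. Without WT replicate 1 of this stage, Ddit4l had 0.0569 and Egr3 0.0999. With the effective-length offset, Nr4a3 had 0.0564, Egr3 0.193 and P2ry2 0.0651. For Fam43a the difference of the change was -0.67 ± 0.31 and did not pass, with adjusted p = 0.164 by edgeR.

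The estimated mix of transcripts also differed between stages for some of the genes. The choice used TPM summed over transcripts, so the WT mix had a part in it, and Mlf1 was not picked when CPM replaced TPM. The KO-labelled mix had none. In Mlf1 the transcript ENSMUST00000061322 took 0.0, 8.46 and 0.0% of the gene's TPM in WT myoblasts and 86.7, 59.0, 72.9 and 65.9% in WT fused myotubes. In KO-labelled libraries it took 0.0, 6.87 and 8.83% and then 68.5, 63.2, 86.8 and 81.8%. So the estimated mix of a gene with a similar total differed between 24 and 72 h. The annotation places the starts within 51 bases of each other. The main myoblast transcript, ENSMUST00000077916, was estimated at 6.34 TPM in WT myoblasts and still at 2.45 TPM in WT fused myotubes. In KO-labelled libraries it was at 8.44 and 2.22 TPM. In Ndrg2 the transcript ENSMUST00000004673 went from at most 2.93e-05% in WT and 0% in KO-labelled myoblasts to between 41.8 and 49.0% in WT fused and between 37.3 and 49.6% in KO-labelled fused myotubes. Its start at base 51913430 lies downstream of the window printed above, whose start is at 51914004. The Ndrg2 transcripts annotated nearest to that start, at 51914097 and 51914158, together took 5.5 ± 1.59% (SD, n = 4) in WT fused myotubes.

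In Art3 the most upstream group of annotated starts, at chr5:92331827-92331841, took 54.2, 87.7 and 17.2% of the TPM in WT myoblasts and 16.8, 10.5, 0.0 and 0.0% in WT fused myotubes. In KO-labelled libraries it took 54.0, 43.6 and 33.1% and then 21.0, 4.62, 6.07 and 12.7%. The transcript at the printed Art3 start took 15.4 ± 4.97% (SD, n = 4) in WT fused and 2.44 ± 4.22% (n = 3) in WT myoblasts, and the largest share, 42.5 to 61.9% in WT fused libraries, went to ENSMUST00000126281, which the annotation starts farther downstream. For the Mlf1 and Ndrg2 transcripts named first and the upstream Art3 group, fused and myoblast shares did not overlap within a label. At the printed Art3 start they overlapped in KO-labelled libraries, with 10.4, 0.0 and 0.0% in myoblasts and 10.4, 7.83, 11.7 and 10.3% in fused myotubes, and the 2 Ndrg2 transcripts nearest the printed start overlapped there too. These shares are the estimates of the quantifier and carry no test. The main transcript in fused myotubes was the same in both labels for 24 of the 25 genes.

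**Figure D5:**
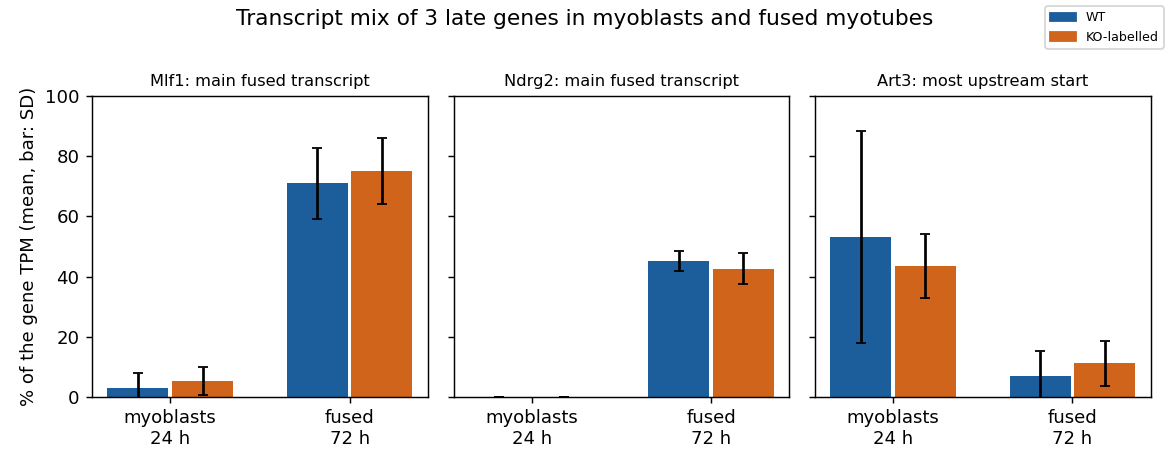
Share of the gene's TPM (mean, bars of 1 SD over libraries, n = 3 for myoblasts and 4 for fused) taken by the main fused transcript of Mlf1 and Ndrg2 and by the most upstream group of starts of Art3. The Mlf1 share goes from 2.82 and 5.23% in WT and KO-labelled myoblasts to 71.1 and 75.1% in fused myotubes, and the Art3 share from 53 and 43.5% to 6.81 and 11.1%.

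Across the 19 genes with promoter windows, the windows had a median GC content of 59.3% and a median of 14 CpG dinucleotides, against 52.7% and 7 over all windows. No searched motif was common to the genes. The TATA match occurred in 4 (Art3, Bmpr1b, Ddit4l and Ndrg2), the TEAD, STAT (TTCNNNGAA) and glucocorticoid (ACANNNTGT) elements in 3 each, and the myogenic E-box CAGCTG in Bmpr1b and Robo2. Of all windows, 14.7, 8.3, 6.85 and 16.3% held these last 4 in that order. These are shares of windows, and the 19 genes had 28 windows, so a gene with several had more chances of a match. The Robo2 TEAD match lay in a window at chr16:75092721-75093020, upstream of the quantified gene, which ends at 74411825.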

How the data were processed

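Messenger RNA was sequenced from 19 libraries, prepared with a poly(A) mRNA kit per the labels' protocols. Per the file headers, each deposited file gives an estimated count and a TPM value for every transcript. The submitters' processing notes name bcl2fastq 2.20, fastp 0.20.0, kallisto 0.46.1, edgeR 3.36 and the build GRCm38.p6, with no role or order. The annotation release is not given in the sources used here. From these files, transcript values were summed per gene (35598 genes). TPM chose and described the genes. A gene's TPM also depends on which of its transcripts received the reads, so it can move while the count does not.

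Summed counts were rounded and fitted over all 6 groups with edgeR 4.0.16 (R 4.3.3): filterByExpr, TMM scaling and the quasi-likelihood test, on 15123 genes, with a threshold of 0.05 on the adjusted p. The script was tested on simulated counts. Error terms after ± are SE for log2 values and SD for TPM and shares. Intervals from counts cover counting error only. All 25 genes passed the filter on low counts. The rule for genes described singly took the 10 largest WT ratios, the 10 highest WT fused levels, up to 5 called label differences each way at a stage whose libraries did not overlap, called differences of the change, genes not rising in KO-labelled libraries, and the 3 genes on each side of a threshold. The others of the 25, the overlapping Tmod4 and Grb14, transcript shares, gained genes, the CArG motif and relatives were picked after values were seen. The members and gene lists were chosen with earlier results of these data known. Alternatives were DESeq2 1.42.0, its size factors, library size alone, an effective-length offset, other filters, only the groups compared, the replicate number as a block, each library left out, and other settings of the rule. Tables were made with Python 3.11.15.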

Additional observations from a re-analysis of the deposited data

Results flagged for a closer look

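The change from differentiated to fused myotubes differed between labels, by edgeR's interaction test, for 5 of the 25 genes, which is why these 5 are listed. Of all genes tested, 8.27% had a larger and 6.53% a smaller change under the KO label, so the count is not set apart from them. On the log2 scale the KO-labelled minus WT difference was 1.16 for Ddit4l, 0.89 for Bmpr1b, -0.94 for Nr4a3, -0.86 for Egr3 and -0.60 for P2ry2. WT and KO-labelled means were 3.88 and 1.40 TPM at 48 h and 78.7 and 93.7 TPM at 72 h for Ddit4l, and 0.668 and 0.304 TPM and then 5.49 and 5.73 TPM for Bmpr1b. Each of the 5 lost its call when 1 of the libraries at 48 h was left out. The WT change in this comparison was selected to be large, which favours the smaller KO-labelled change of Nr4a3, Egr3 and P2ry2. No library stood apart from the other 3 in any of the 50 groups of 4 tested with Dixon's criterion.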

How the results depend on the processing

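Of 45 results on single genes, 32 were called under every alternative run, 13 lost the call under at least 1, and 0 changed sign. The 25 rises in KO-labelled libraries from differentiated to fused myotubes were called under each of them. In fused myotubes the lower Fam43a, Ndrg2 and Nr4a3 and the higher Cd24a stayed called in each, with a largest adjusted p by edgeR or DESeq2 of 6.55e-08, 0.0117, 0.00484 and 0.0108. Every alternative reuses the WT fused libraries that the rule required to be high, so for the 3 lower genes these p-values are no independent support.

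With library size alone, 1 gene was lower in KO-labelled fused myotubes than in myoblasts. Over all 15123 genes the count of lower ones went from 6737 to 7957. The count of genes higher in KO-labelled myoblasts than WT went from 1 to 0 with DESeq2's size factors, with DESeq2's test and with the effective-length offset, and to 2 with only the groups compared. Over all genes tested that count went from 735 to 485, 422 and 109, and to 1121 of 13325. With the effective-length offset, 1 gene was higher and 3 were lower in KO-labelled fused myotubes than WT, and 0 had a smaller change from 48 to 72 h. Calls over all 15123 genes fell too under this offset, from 956 to 399 higher and from 1016 to 424 lower in fused myotubes, from 735 to 109 higher in myoblasts, and from 987 to 339 smaller changes. That offset raised the adjusted p at 72 h to 0.148 for Egr3, 0.251 for Ddit4l, 0.319 for Grb14 and 0.0733 for Tmod4. The cause was not tested.

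The rule picked 40 genes with CPM in place of TPM (17 of the 25 among them), 16 at 8-fold, 54 at 4-fold, 70 at a level of 1 TPM and 12 at 10 TPM. Leaving out 1 library at a time, it picked 21 to 28. Left-out libraries gave 25 higher from 48 to 72 h in each case, 23 to 24 higher from 24 to 72 h, and 7 to 8 higher and 11 to 12 lower from 24 to 48 h. KO-labelled against WT, they gave 0 to 1 higher and 2 lower in myoblasts, 1 to 2 higher and 0 to 4 lower in differentiated, and 2 to 3 higher and 4 to 6 lower in fused myotubes, and 0 to 3 larger and 0 to 3 smaller changes. Where 1 library of a group remained, its spread was taken from the other groups. Leaving out 1 fused library called 698 to 911 of all genes tested higher and 681 to 1046 lower in KO-labelled fused myotubes than WT.

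With the replicate block, 25 were higher from 48 to 72 h and 24 from 24 to 72 h. From 24 to 48 h, 8 were higher and 12 lower. Under the KO label 1 and 2, 2 and 3, and 3 and 5 were higher and lower at the 3 stages, with 2 larger and 3 smaller changes. Over all 15123 genes this fit called 5341 higher and 5089 lower from 48 to 72 h and 6401 and 6686 from 24 to 72 h. From 24 to 48 h it called 6208 and 6382. KO-labelled against WT, it called 680 and 986, 1620 and 2047, and 892 and 966 higher and lower, with 1197 larger and 951 smaller changes. Same-numbered libraries did not deviate together over all genes tested, with 0 of 41 pairs above a correlation of 0.1. This cannot show that they were unpaired, since a small shared effect could be lost in counting noise. Low counts at 48 h limit the precision of fold changes, as for Mlf1, Tmod4, Ctsc and Gm3149.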
